A study of Mus musculus with 12 samples.

Results

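The non-clustered protocadherin genes Pcdh7, Pcdh8, Pcdh9, Pcdh10, Pcdh15, Pcdh17, Pcdh18 and Pcdh20 were followed through a ChIP-seq survey of H3K9me2 in mouse prefrontal cortex. H3K9me2 is dimethylated lysine 9 of histone H3. A region belonged to a member when the deposited table named that gene as overlapping it, or, where no gene overlapped, as the gene with the closest start. The member names were given as a list, chosen with earlier results of these data known. The rule found 95 of 33787 regions in the table that compares FAD with WT mice and 129 of 43680 regions in the table that compares FAD-BIX with FAD mice. Of the 8 genes, 6 had regions in both tables, and Pcdh8 and Pcdh10 had none in either.

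Chromatin came from C57BL/6 mice of 5 to 6 months, in 3 groups of 2 mice each. The groups were wild-type mice (WT), a familial Alzheimer's disease model (FAD) and the same model given BIX01294 (FAD-BIX), an inhibitor of the methyltransferases EHMT1 and EHMT2. Each mouse gave 1 ChIP and 1 input library. The FAD mutations, the promoter that drives any transgene, the BIX01294 dose and route, and the treatment of the other groups are not given in the sources used here. FAD-BIX and FAD mice shared the mutations, and no WT mice were labelled as treated. The tissue was punched from slices and held all its cell types, so fewer cells of a type and less signal per cell cannot be told apart.

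Protocadherins are adhesion proteins of the cadherin superfamily that span the membrane and bind copies of themselves on neighbouring cells. The clustered members lie in tandem arrays, whereas the non-clustered members are single genes scattered over the genome. Many are large or stand at the edge of long gene-poor intervals. In cortex the delta protocadherins (here Pcdh7 and Pcdh9 in the first subgroup, and Pcdh8, Pcdh10, Pcdh17 and Pcdh18 in the other) take part in axon growth and synapse formation, and those of the second subgroup bind the WAVE complex that controls actin. Pcdh15 is best known as a part of the tip link of inner-ear hair cells. H3K9me2 marks repressed chromatin and often covers long, gene-poor domains, and EHMT1 and EHMT2 place much of it in neurons.

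The start sites are shown first, because every region described here lay away from them. The promoters of Pcdh17, Pcdh9 and Pcdh20 follow, from 250 bases before to 50 after the start, 5′ to 3′ on the gene's strand, with each CG dinucleotide in capitals. They come from RefSeq, build GRCm38.p6, in which all 8 members matched by symbol. Pcdh17 had the most and Pcdh20 the fewest CG dinucleotides of the 8 members, and Pcdh9 is the member with the largest fold in the comparison of FAD-BIX with FAD mice.
Pcdh17, chr14:84443313-84443612, plus strand: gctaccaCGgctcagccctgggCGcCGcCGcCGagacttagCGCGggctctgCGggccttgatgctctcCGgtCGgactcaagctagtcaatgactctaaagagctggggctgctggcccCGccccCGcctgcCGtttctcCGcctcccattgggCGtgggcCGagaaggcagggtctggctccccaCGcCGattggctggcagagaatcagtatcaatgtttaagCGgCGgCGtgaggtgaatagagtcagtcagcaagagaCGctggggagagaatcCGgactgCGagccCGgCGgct
Pcdh9, chr14:93890630-93890929, minus strand: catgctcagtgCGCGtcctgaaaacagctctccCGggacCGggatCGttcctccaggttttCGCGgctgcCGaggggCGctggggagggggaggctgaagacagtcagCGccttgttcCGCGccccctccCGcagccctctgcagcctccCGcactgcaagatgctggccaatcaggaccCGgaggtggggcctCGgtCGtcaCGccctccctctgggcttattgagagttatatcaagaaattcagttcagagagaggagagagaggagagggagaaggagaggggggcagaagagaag
Pcdh20, chr14:88471347-88471646, minus strand: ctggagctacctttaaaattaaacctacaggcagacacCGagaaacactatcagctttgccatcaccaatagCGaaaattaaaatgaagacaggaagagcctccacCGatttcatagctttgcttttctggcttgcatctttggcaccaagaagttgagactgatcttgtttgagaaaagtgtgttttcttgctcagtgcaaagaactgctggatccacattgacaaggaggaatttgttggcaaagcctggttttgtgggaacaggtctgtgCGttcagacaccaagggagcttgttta

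Counted on this strand, and so on both since CG reads the same on each, Pcdh17 held 26 CG dinucleotides, Pcdh10 24, Pcdh18 23, Pcdh9 18, Pcdh8 14, Pcdh7 11, Pcdh15 8 and Pcdh20 4. The median over 32851 promoters of the same length was 7, and 94.6% of them held at least 1. All members but Pcdh20 thus had more than the median, with the most in Pcdh17, Pcdh10 and Pcdh18, and Pcdh20 had fewer than the median. No region of either table overlapped any of the 8 promoters. The closest region of any gene was centred 12.5 kb from the Pcdh20 start in both tables. For Pcdh9 that distance was 69.3 kb in the FAD versus WT table and 52.1 kb in the FAD-BIX versus FAD table. For Pcdh17 it was 21.4 kb and 51.5 kb.

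The ChIP libraries held 20.45 to 26.58 M reads and the inputs 13.92 to 23.76 M. The regions took up 2.00% to 4.23% of a ChIP library, and FAD 2 had the highest share in both tables. The median region held 11 to 20 ChIP reads per library, so counting error was large for single regions. Regions had been called in each library separately, and FAD 2 was the only library to call 20360 of the 33787 regions. Across the regions of 16 heart muscle genes, of which 6 had a region, the ChIP library labelled FAD 1 held 1670 reads in the FAD versus WT table, against 162 in FAD 2, 139 in WT 1 and 100 in WT 2. The input of the mouse labelled FAD 1 held 70 such reads, against 83 to 132 in the other inputs of that table. In the other table the ChIP counts were 1731 and 140 in FAD and 79 and 61 in FAD-BIX. What part this has in the results for the protocadherins was not tested, and results are given with and without that library. The defining heart gene Myh6 (cardiac myosin heavy chain) held 771 of those reads in FAD 1 and 47 to 69 in the other libraries of the FAD versus WT table. H3K9me2 is not a readout of which tissue was sampled, so the label prefrontal cortex could not be checked against expressed markers.

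The member regions fell into 2 kinds of place. Pcdh7 and Pcdh15 had theirs inside the gene, almost all in introns. In the FAD-BIX versus FAD table all 6 regions of Pcdh7 and 24 of 26 regions of Pcdh15 were intronic, with 1 further Pcdh15 region centred in an exon and 1 in the flank. Pcdh17, Pcdh18 and Pcdh20 had theirs nearly all in the flanks of the gene, namely 49 of 52 regions of Pcdh17, 2 of 2 of Pcdh18 and 22 of 22 of Pcdh20. Pcdh9 had both, with 12 intronic and 9 flanking regions. The FAD versus WT table had the same layout, with 4 intronic regions for Pcdh7, 20 intronic and 1 exonic for Pcdh15, 35 flanking of 37 for Pcdh17, 2 flanking for Pcdh18, 19 flanking for Pcdh20, and 8 intronic and 4 flanking for Pcdh9. The regions were small, with a median width of 303 bp and 312 bp in the 2 tables, against 329 bp and 325 bp over all regions.

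**Figure D1:**
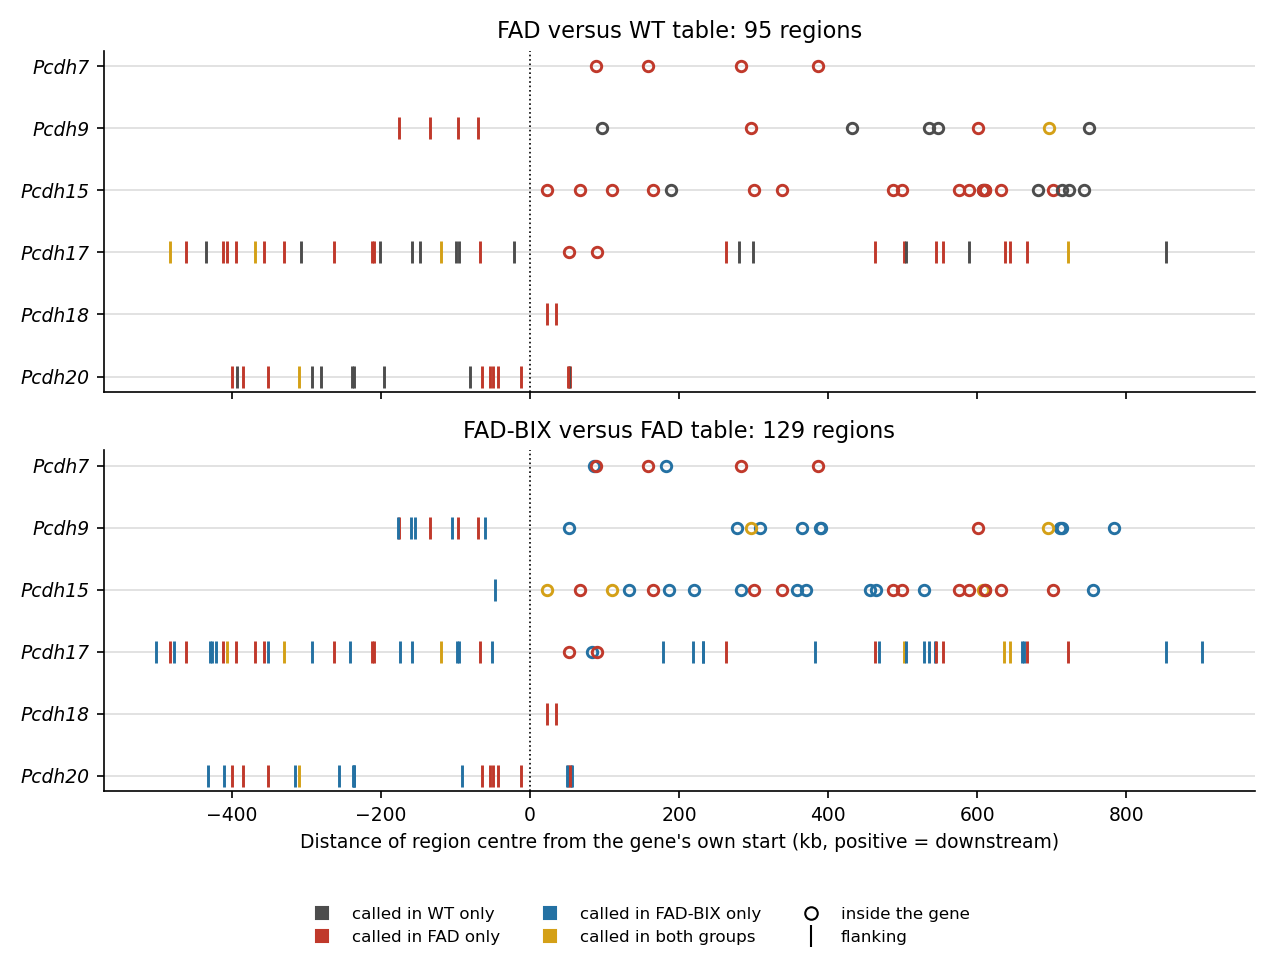
Each mark is 1 region, placed by the distance of its centre from the start of the gene (kb, positive downstream on the gene's strand), for the FAD versus WT table (95 regions, top) and the FAD-BIX versus FAD table (129 regions, bottom). Circles are regions inside the gene, bars are flanking regions, and colour gives the group or groups whose libraries called the region. Pcdh7 and Pcdh15 have regions inside the gene, Pcdh17, Pcdh18 and Pcdh20 nearly all in the flanks, and most marks have the colour of a single group.

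Pcdh17 spread the widest. Its regions reached from 501.3 kb upstream to 902.1 kb downstream of its start in the FAD-BIX versus FAD table, with 26 on each side. The gene itself spans 94.0 kb on chromosome 14, from 84443563 to 84537565. Pcdh20, a gene of 6.65 kb from 88464743 to 88471396 on the same chromosome, had 17 of 22 regions upstream, out to 431.8 kb. Pcdh9, at 879.1 kb the longest of the 4 members on chromosome 14, had flanking regions upstream only, the furthest centred at -177.2 kb.

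A count by gene name depends on which gene is closest, so regions were also counted within 500 kb of each gene whatever name they carried. This count was added after the values had been seen. In the FAD-BIX versus FAD table Pcdh20 had 46 regions in its window, or 45.7 per Mb, Pcdh17 39.3, Pcdh18 36.5, Pcdh7 34.6, Pcdh9 25.5, Pcdh15 25.1, Pcdh10 24.6 and Pcdh8 15.9 per Mb. The median over 21631 protein-coding genes was 5.96 per Mb, and the percentage of genes with a lower density ranged from 77.7% for Pcdh8 to 99.4% for Pcdh20. All 8 members thus had more regions around them than the median gene, including the 2 without a region of their own. Around Pcdh10 the 26 regions were closest to annotated genes that the table leaves unnamed, and around Pcdh8 14 of 16 were given to another named gene. Pcdh18 had 2 regions by name but 37 in its window. For Pcdh15 the RefSeq gene starts further upstream than the gene in the table, and holds 44 regions where 26 were given to it. In the FAD versus WT table the densities were 20.2 to 31.8 per Mb, against a median of 4.94.

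Few member regions were called in more than 1 library, as in the whole table. In the FAD versus WT table, 7 of 95 member regions had been called in at least 2 of 4 libraries, and 5.12% of all regions. In the other table, 14 of 129 had, against 6.59% of all regions. FAD 2 called 50 of the 95 member regions, or 52.6%, which was a lower share than its 64.7% of all regions. The other 3 libraries called a larger share of the member regions than of all regions: FAD 1 14 or 14.7% against 11.6%, WT 1 20 or 21.1% against 17.4%, and WT 2 18 or 18.9% against 12.2%. In the FAD-BIX versus FAD table FAD-BIX 1 called 37 of 129 regions and FAD-BIX 2 43, or 28.7% and 33.3%, against 22.3% and 26.0% of all regions. There FAD 1 called 14 or 10.9%, against 8.94% of all regions, and FAD 2 called 50 or 38.8%, against 50.2%. Pcdh9 had 8 and 10 of its 21 regions called in the FAD-BIX mice and 1 and 6 in the FAD mice. These shares are descriptions, since a call depends on depth and on the enrichment of its library.

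Per length, ChIP signal over the regions of each gene stood above input in every mouse except at Pcdh18 in WT 1, where 11 ChIP and 12 input reads fell. Signal is given as RPM, which is reads per M reads of the library (M stands for mega), per kb of region. Summed over the 6 genes, WT mice had 1.47 and 1.60 RPM per kb in ChIP and 0.57 and 0.62 in input. FAD mice had 1.52 and 2.48 in ChIP and 0.51 and 0.50 in input. FAD 2 was thus the high library, and FAD 1 lay between the WT mice. In the FAD-BIX versus FAD table the ChIP values were 1.75 and 1.71 in the treated mice and 1.33 and 2.04 in untreated FAD mice, and FAD-BIX lay between the FAD mice.

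The ratio of ChIP to input on the log2 scale, with 1 added to each count, is a level within each mouse. For the 6 genes summed it was 1.38 and 1.37 in WT and 1.56 and 2.32 in FAD mice, against 1.09 and 1.00 in WT and 1.34 and 2.25 in FAD mice over the whole table. In the regions of the other table it was 1.67 and 1.92 in the treated mice and 1.45 and 2.15 in untreated FAD mice, against 1.24 and 1.69 in the treated mice and 1.32 and 2.1 in untreated FAD mice over all regions. The member regions therefore had a ratio above that of the whole table in each of the 8 table and mouse combinations. For the sum, the groups of 2 did not overlap between FAD and WT and did overlap between FAD-BIX and FAD. The same held over the whole table. By gene, FAD and WT mice overlapped at Pcdh9, Pcdh18 and Pcdh20 and not at Pcdh7, Pcdh15 and Pcdh17. No test was made of these ratios. In the FAD versus WT table, regions inside the genes and in the flanks were close to each other. In WT mice the ratios were 1.38 and 1.27 inside the genes and 1.37 and 1.43 in the flanks. In FAD mice they were 1.58 and 2.25 inside and 1.54 and 2.35 in the flanks. In the FAD-BIX versus FAD table the ratio was higher inside than in the flanks in each mouse. Treated mice had 1.76 and 2.07 inside and 1.61 and 1.85 in the flanks. Untreated FAD mice had 1.66 and 2.29 inside and 1.33 and 2.09 in the flanks.

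**Figure D2:**
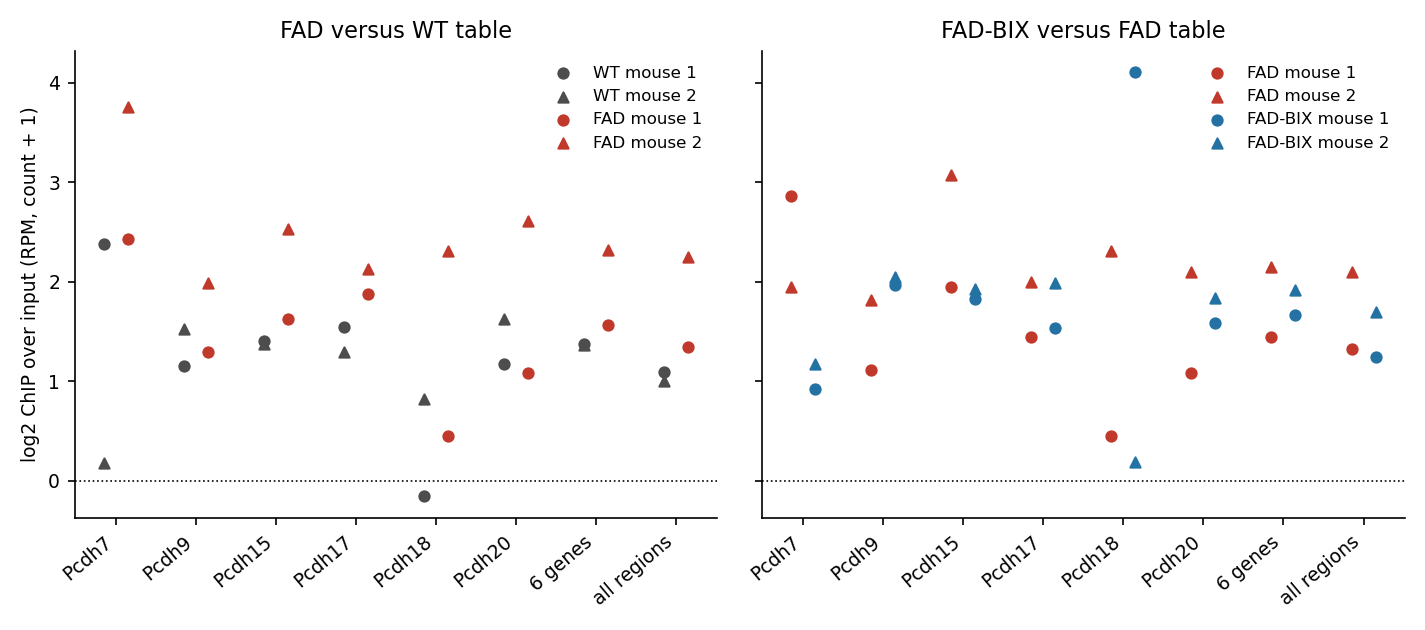
Log2 ratio of ChIP to input RPM (count plus 1, vertical axis) for each gene, the 6 genes summed and all regions, by mouse (circle for mouse 1, triangle for mouse 2, colour for group), in the FAD versus WT regions (left) and the FAD-BIX versus FAD regions (right). The 6 genes summed lie between 1.37 and 2.32 on the left, with the FAD mice above the WT mice, and Pcdh7 and Pcdh18, the genes with the fewest reads, scatter most.

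FAD mice were then compared with WT mice, gene by gene. No protocadherin gene differed at an adjusted p under 0.05 by edgeR's quasi-likelihood test on counts summed over each gene's regions, and neither did any other of the 3795 genes tested (0% called). DESeq2 called 1 gene, which was no member. At an unadjusted p under 0.05, 1.29% of genes were higher and 3.19% lower in FAD mice, and none of the 6 members was among them. In every member the library FAD 2 was the highest of the 4 in RPM.

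Pcdh17 held most reads, with summed counts of 514 and 746 in FAD and 524 and 590 in WT ChIP libraries. In RPM these were 20.6 and 35.9 in FAD and 21.4 and 22.2 in WT mice. One FAD mouse lay below and the other above the WT mice. The log2 fold was -0.22 ± 0.22 (SE, adjusted p = 0.934). Its location sums gave -0.23 ± 0.25 for the 35 flanking and -0.14 ± 0.55 for the 2 inner regions.

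Pcdh15 had summed counts of 326 and 366 in FAD and 269 and 325 in WT mice, or 13.1 and 17.6 against 10.99 and 12.2 RPM. The FAD mice were both above the WT mice in RPM. After scaling by the trimmed mean of M-values (TMM), which sets the typical region of each library equal, the log2 fold was -0.13 ± 0.25 (adjusted p = 0.966), so the sign depended on the scaling. Over all genes, scaling by library totals in place of TMM moved the median log2 fold from 0.01 to 0.61, and the folds of Pcdh15, Pcdh17, Pcdh20 and Pcdh9 all changed sign with it.

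Pcdh20 held 252 and 352 reads in the FAD mice, against 240 and 307 in WT mice, or 10.1 and 16.9 against 9.80 and 11.5 RPM, and the groups overlapped. Its log2 fold was -0.24 ± 0.23 (adjusted p = 0.934). The smaller sums were less certain. Pcdh7 held 55 and 55 reads in the FAD mice, against 42 and 39 in WT mice (log2 fold 0.09 ± 0.36), and Pcdh18 18 and 40 against 11 and 18 (0.56 ± 0.53). In RPM the FAD mice were above the WT mice for both. Without the library labelled FAD 1 the gene folds were -0.31 for Pcdh7, -0.44 for Pcdh15, -0.32 for Pcdh17, 0.72 for Pcdh18 and -0.38 for Pcdh20, and no adjusted p was under 0.05.

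Pcdh9 encodes a delta protocadherin of the first subgroup. Over its 12 regions it held 182 and 272 reads in the FAD mice, against 191 and 228 in WT mice. In RPM these were 7.30 and 13.1 against 7.80 and 8.58, and the groups overlapped. The log2 fold of the gene sum was -0.28 ± 0.23 (adjusted p = 0.930), and -0.37 without the library labelled FAD 1. Its intronic regions held 130 and 129 reads in the FAD mice, against 138 and 165 in WT mice, or 5.21 and 6.20 against 5.64 and 6.21 RPM. Its flanking regions held 52 and 143 reads in the FAD mice, against 53 and 63 in WT mice, or 2.09 and 6.88 against 2.16 and 2.37 RPM. The flank was high in FAD 2 alone, while inside the gene the FAD and WT mice overlapped. The log2 folds were -0.57 ± 0.30 inside (adjusted p = 0.943) and 0.26 ± 0.34 in the flank (adjusted p = 0.952), among 4337 location sums of which 0% were called. The difference between inside and flank was not tested. Without the library labelled FAD 1 the inner fold was -0.996 ± 0.38 (adjusted p = 0.365), and without FAD 2 it was -0.25 ± 0.38.

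**Figure D3:**
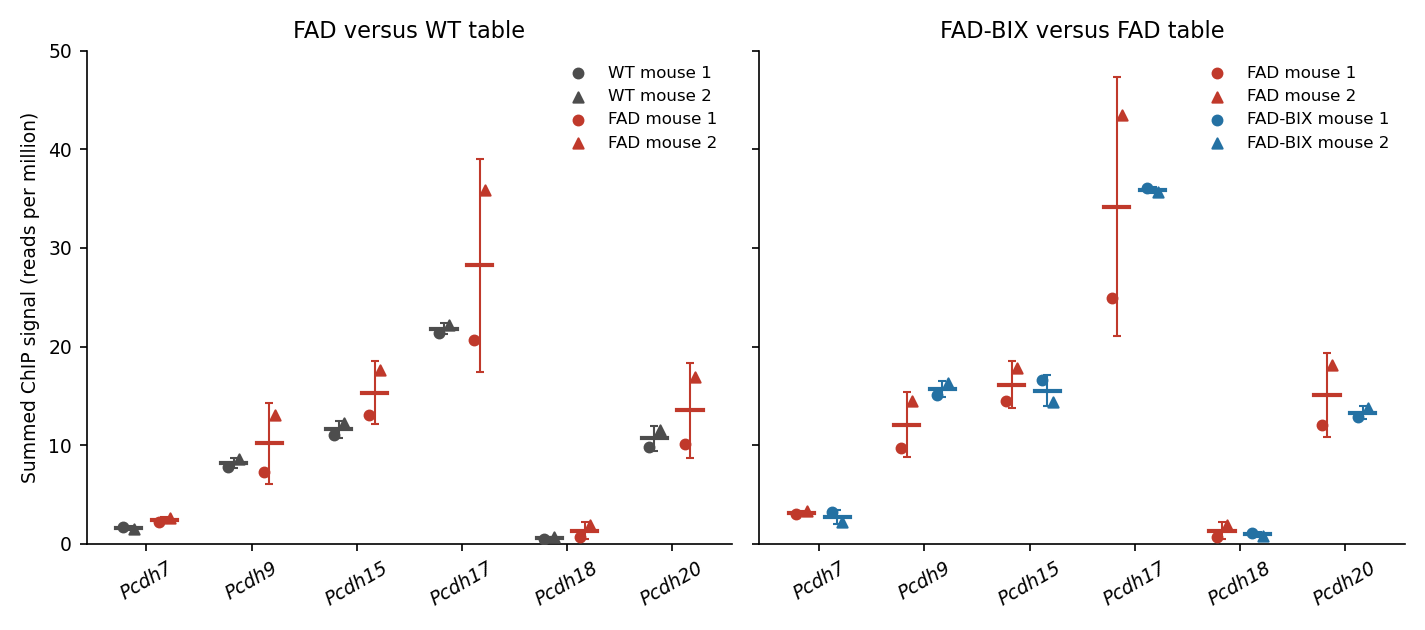
Summed ChIP signal of each gene in RPM (vertical axis from 0) by mouse (circle for mouse 1, triangle for mouse 2), with the mean and SD of each group as a line and error bar, for the FAD versus WT regions (left) and the FAD-BIX versus FAD regions (right). The FAD mice lie far apart, with mouse 2 high, for example 20.6 and 35.9 RPM for Pcdh17 against 21.4 and 22.2 RPM in WT mice.

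FAD-BIX mice were compared with FAD mice to ask whether the EHMT1/2 inhibitor changed the mark. The same FAD libraries serve both comparisons, so a high or low FAD value enters them with opposite sign. Pcdh9 was the member with the largest difference, and it was higher in the inhibitor-treated mice. That difference did not pass adjustment over all genes. No gene of 4096 had an adjusted p under 0.05 by edgeR (0% called) or by DESeq2, while at an unadjusted p under 0.05 2.95% were higher and 2% lower. Of the 6 members 1, Pcdh9, was among the higher genes and none among the lower.

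Pcdh9 held 309 and 358 reads in the treated mice and 243 and 300 in untreated FAD mice over its 21 regions, or 15.1 and 16.3 against 9.74 and 14.4 RPM. Both FAD-BIX mice were above both FAD mice. The log2 fold was 0.65 ± 0.21, or 1.57-fold (unadjusted p = 0.0065, adjusted p = 0.841). Inside the gene the counts were 195 and 208 in the treated and 168 and 140 in the untreated FAD mice, or 9.54 and 9.46 against 6.74 and 6.73 RPM. The groups did not overlap there, and each pair of mice lay close together. Most of the 21 regions, and most of the inner ones, had been called in FAD-BIX libraries alone. They entered the table where that group was high. In the flank the values were 5.58 and 6.82 RPM against 3.01 and 7.69, and FAD 2 was the highest library. The log2 folds were 0.69 ± 0.27 inside (unadjusted p = 0.0178) and 0.58 ± 0.27 in the flank (unadjusted p = 0.0468), both with an adjusted p of 0.847 among 4721 location sums of which 0% were called. Over 11 alternative settings the flank fold ran from -0.105 with limma on ChIP over input to 1.383 without regions called in FAD 2 alone, and was above 0 in 10 of them.

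The Pcdh9 sum was above 0 in all 13 alternative settings run, from 0.38 with library totals as scaling to 0.79 without the library labelled FAD 1. Most regions of this sum had been called in FAD-BIX libraries alone, and no setting left all of these out. The shared sign is therefore no independent support. The inner sum, over regions mostly called in FAD-BIX libraries alone, was 1.16 ± 0.30 without FAD 1 and 0.30 ± 0.28 without FAD 2. With FAD 1 left out the FAD group is a single library, whose spread is taken from the FAD-BIX libraries. Those lay close together at the inner sum, at 9.54 and 9.46 RPM. Library totals moved the median fold of all genes from 0.00 to -0.30, while Pcdh9 kept a positive value. The inner regions held 35 and 21 input reads in the treated mice and 43 and 43 in untreated FAD mice, and the log2 ratio of ChIP to input was 1.97 and 2.59 against 1.14 and 1.22.

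Pcdh17 came next, with counts of 738 and 784 in the treated and 621 and 904 in the untreated FAD mice, or 36.1 and 35.6 against 24.9 and 43.5 RPM. The FAD-BIX mice lay between the FAD mice. Its log2 fold was 0.37 ± 0.19 (unadjusted p = 0.0659, adjusted p = 0.841) and lay between 0.02 and 0.44 in the 13 alternatives. The flanking sum gave 0.36 ± 0.19 and the inner sum 0.45 ± 0.49.

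The other members had smaller folds than Pcdh9 and Pcdh17. Pcdh15 held 340 and 317 reads in the treated mice and 360 and 370 in untreated FAD mice (16.6 and 14.4 against 14.4 and 17.8 RPM), with a log2 fold of 0.18 ± 0.22. Pcdh20 held 262 and 303 against 300 and 376 (12.8 and 13.8 against 12.0 and 18.1 RPM), with a log2 fold of 0.10 ± 0.21. Both had groups that overlapped. Pcdh7 held 65 and 49 against 75 and 68 reads, with a log2 fold of 0.00 ± 0.33. Pcdh18 held 23 and 17 against 18 and 40 reads, with a log2 fold of -0.11 ± 0.53. The last 2 sums rest on few reads, as their SEs show. Without the library labelled FAD 1 the folds were 0.47 for Pcdh15, 0.22 for Pcdh20, 0.39 for Pcdh7, -0.35 for Pcdh18 and 0.39 for Pcdh17, and none of these had an adjusted p under 0.05.

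**Figure D4:**
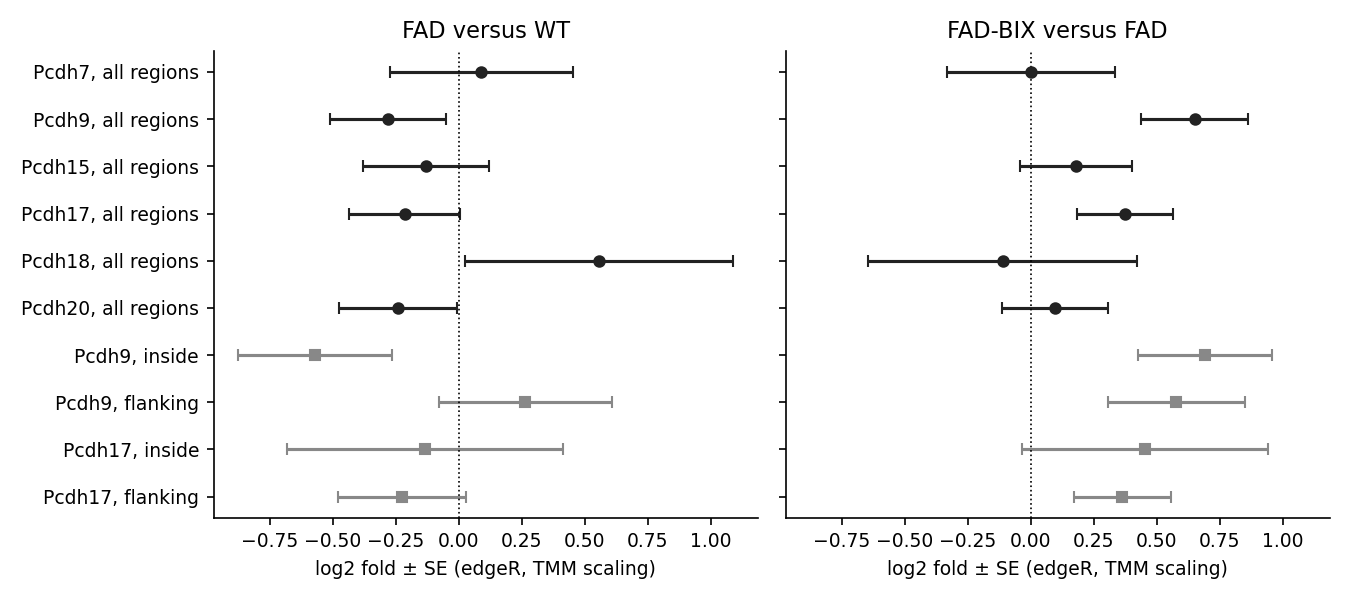
Log2 fold of summed ChIP counts (point) with its SE (bar) by edgeR with TMM scaling for each gene over all its regions (black) and for Pcdh9 and Pcdh17 inside the gene and in the flanks (grey), FAD versus WT on the left and FAD-BIX versus FAD on the right. On the left the inner sum of Pcdh9 lies lowest at -0.57 ± 0.30, and on the right Pcdh9 has the highest fold of the 6 genes at 0.65 ± 0.21.

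Single regions had larger errors than the sums. Of the 95 member regions in the FAD versus WT table, 76 passed the filter on low counts, and of the 129 in the other table, 91 did. None had an adjusted p under 0.05, and neither did any of the 27778 and 31055 regions tested (0% called in each), and DESeq2 called 0 regions in both. In the FAD versus WT table, 0 member regions were higher and 4 lower below an unadjusted p of 0.05, where 0.918% and 4.97% of all tested regions were. In the FAD-BIX versus FAD table, 3 were higher and 0 lower, where 3.93% and 1.18% of all tested regions were. These shares were near the background.

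The 4 lower regions lay at 3 genes. An intronic Pcdh9 region (chr14:93343024-93343657, intron 3) held 14 and 12 reads in the FAD mice, against 38 and 19 in WT mice (log2 fold -1.53 ± 0.58, adjusted p = 0.832). A region upstream of Pcdh20, at -236.6 kb from its start (chr14:88707655-88708268) held 18 and 15 against 23 and 45 (-1.38 ± 0.51), and a Pcdh15 region in intron 23 (chr10:74502548-74502820) held 12 and 11 against 19 and 22 (-1.20 ± 0.54). A second Pcdh20 region, at -195.2 kb (chr14:88666388-88666899), held 10 and 5 against 33 and 10 reads (-1.89 ± 0.78), with most reads in WT 1. It falls outside the rule for named regions and is given to complete the 4. Each of these 4 had been called in a single WT library and in no FAD library.

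The 3 higher regions in FAD-BIX mice lay at Pcdh7, Pcdh17 and Pcdh9. The Pcdh7 region in intron 1 (chr5:57803419-57803711) held 23 and 26 reads in the treated mice and 10 and 7 in untreated FAD mice (log2 fold 1.89 ± 0.60, adjusted p = 0.897). The Pcdh17 region 660.6 kb downstream (chr14:85103988-85104420) held 13 and 22 against 7 and 4 (2.01 ± 0.77). The Pcdh7 and Pcdh17 regions had each been called in FAD-BIX 2 alone. The Pcdh9 region in intron 3 (chr14:93501236-93501826) held 19 and 25 against 16 and 2 (1.57 ± 0.73), and had been called in both FAD-BIX mice. The authors' log2 folds of ChIP over input at the 3 regions were -0.09 for Pcdh7, 1.79 for Pcdh17 and 2.46 for Pcdh9. A further Pcdh9 region in the last intron (chr14:93107382-93107961) had also been called in both FAD-BIX mice, with 20 and 22 against 15 and 11 reads (1.06 ± 0.57). No other member region had been called in both FAD-BIX mice. At Pcdh15 and Pcdh20 the regions with the smallest p did not reach 0.05. They lay in intron 8 of Pcdh15 (chr10:74286172-74286471, 18 and 16 reads against 8 and 12, 1.19 ± 0.63) and 49.6 kb downstream of the Pcdh20 start (chr14:88421623-88421877, 17 and 11 against 7 and 3, 1.80 ± 0.96).

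Several regions with many reads had folds near 0 after TMM scaling. A Pcdh15 region in intron 1 (chr10:73931085-73931609) was called in both FAD mice and held 38 and 38 reads in the FAD mice, against 25 and 36 in WT mice (log2 fold -0.04 ± 0.45). Its counterpart in the other table was called in FAD-BIX 1 and both FAD mice, and held 26 and 28 against 38 and 39 reads (-0.12 ± 0.45). The Pcdh17 regions with most reads in the FAD versus WT table tied at 157 reads over 4 libraries. The first, at -118.9 kb (chr14:84324191-84325168), held 51 and 41 reads in the FAD mice, against 38 and 27 in WT mice (0.14 ± 0.50), and the other, 721.6 kb downstream, held 32 and 55 against 42 and 28 (-0.16 ± 0.45). A Pcdh9 region in the last intron held 51 and 27 reads in the FAD mice, against 26 and 43 in WT mice (-0.09 ± 0.56). A Pcdh20 region (chr14:88420205-88420840) held 21 and 48 against 15 and 32 (0.10 ± 0.47). At the last 2 regions mice of the same group lay further apart than the groups. In RPM both FAD mice were above both WT mice at the Pcdh15 region, with 1.52 and 1.83 against 1.02 and 1.35. The same held at the Pcdh17 region at -118.9 kb, with 2.05 and 1.97 against 1.55 and 1.02. At the counterpart of the Pcdh15 region both FAD-BIX mice were below both FAD mice in RPM. At the others named the mice of the groups overlapped in RPM.

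In RPM, 17 of 95 member regions had both FAD mice above both WT mice and 9 had both below, or 17.9% and 9.47%, where 29.6% and 7.09% of all regions had. In the FAD-BIX versus FAD table, 18 of 129 were above and 13 below, or 14.0% and 10.1%, where 12.6% and 19.5% of all regions were. For Pcdh9 alone 9 of 21 were above and 0 below. All 9 had been called in FAD-BIX libraries alone, so they entered the table where that group was high. In the authors' deposited table, which compares ChIP over input, 2 member regions were higher and 1 lower in FAD mice at p under 0.05, where 2.14% of all regions were higher and 0.533% lower. In FAD-BIX versus FAD, 2 were higher and 0 lower in the authors' deposited table, where 0.778% and 1.31% of all regions were. The smallest such p was 0.0313 and 0.00884, and every member region had a q of 1 in the authors' deposited table.

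A region enters a table because a library called it, and that library tends to be the highest there. Regions called in a single library were therefore read in the other libraries. Those libraries had to have no call there, so they too were selected, toward low values. The averages and their order are thus descriptions. In the 45 member regions called in FAD 2 alone in the FAD versus WT table, FAD 2 averaged 1.20 RPM, FAD 1 0.47, WT 1 0.39 and WT 2 0.51. In the 16 called in WT 1 alone, WT 1 averaged 1.02, WT 2 0.52, FAD 1 0.48 and FAD 2 0.63. In the 16 called in WT 2 alone, WT 2 averaged 0.92, WT 1 0.45, FAD 1 0.45 and FAD 2 0.52. In these 3 sets the other mouse of the calling group lay between the mice of the other group. In the 11 called in FAD 1 alone, FAD 2 averaged 0.40 RPM and lay above WT 1 at 0.29 and WT 2 at 0.35.

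For Pcdh9 in the FAD-BIX versus FAD table this reading put the other FAD-BIX mouse slightly above the FAD mice, on few reads. Those mice had not called the regions in which they were read. In the 6 regions called in FAD-BIX 1 alone, FAD-BIX 2 averaged 0.30 RPM, FAD 1 0.19 and FAD 2 0.26. In the 6 called in FAD-BIX 2 alone, FAD-BIX 1 averaged 0.37, FAD 1 0.33 and FAD 2 0.23. In the 5 called in FAD 2 alone, where only FAD 1 stands for its group, FAD-BIX 1 averaged 0.76, FAD-BIX 2 0.85 and FAD 1 0.55. For Pcdh17 the same reading gave 0.33 RPM in FAD-BIX 2 against 0.37 and 0.50 in FAD mice over 12 regions called in FAD-BIX 1 alone, and there the FAD mice were the higher ones. Over 16 Pcdh17 regions called in FAD-BIX 2 alone, FAD-BIX 1 averaged 0.39 RPM and lay between FAD 1 at 0.38 and FAD 2 at 0.51. Over all 28 member regions called in FAD-BIX 1 alone, FAD-BIX 2 averaged 0.31 RPM, below FAD 1 at 0.33 and FAD 2 at 0.39. Over the 36 called in FAD-BIX 2 alone, FAD-BIX 1 averaged 0.43 RPM, between FAD 1 at 0.41 and FAD 2 at 0.46.

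**Figure D5:**
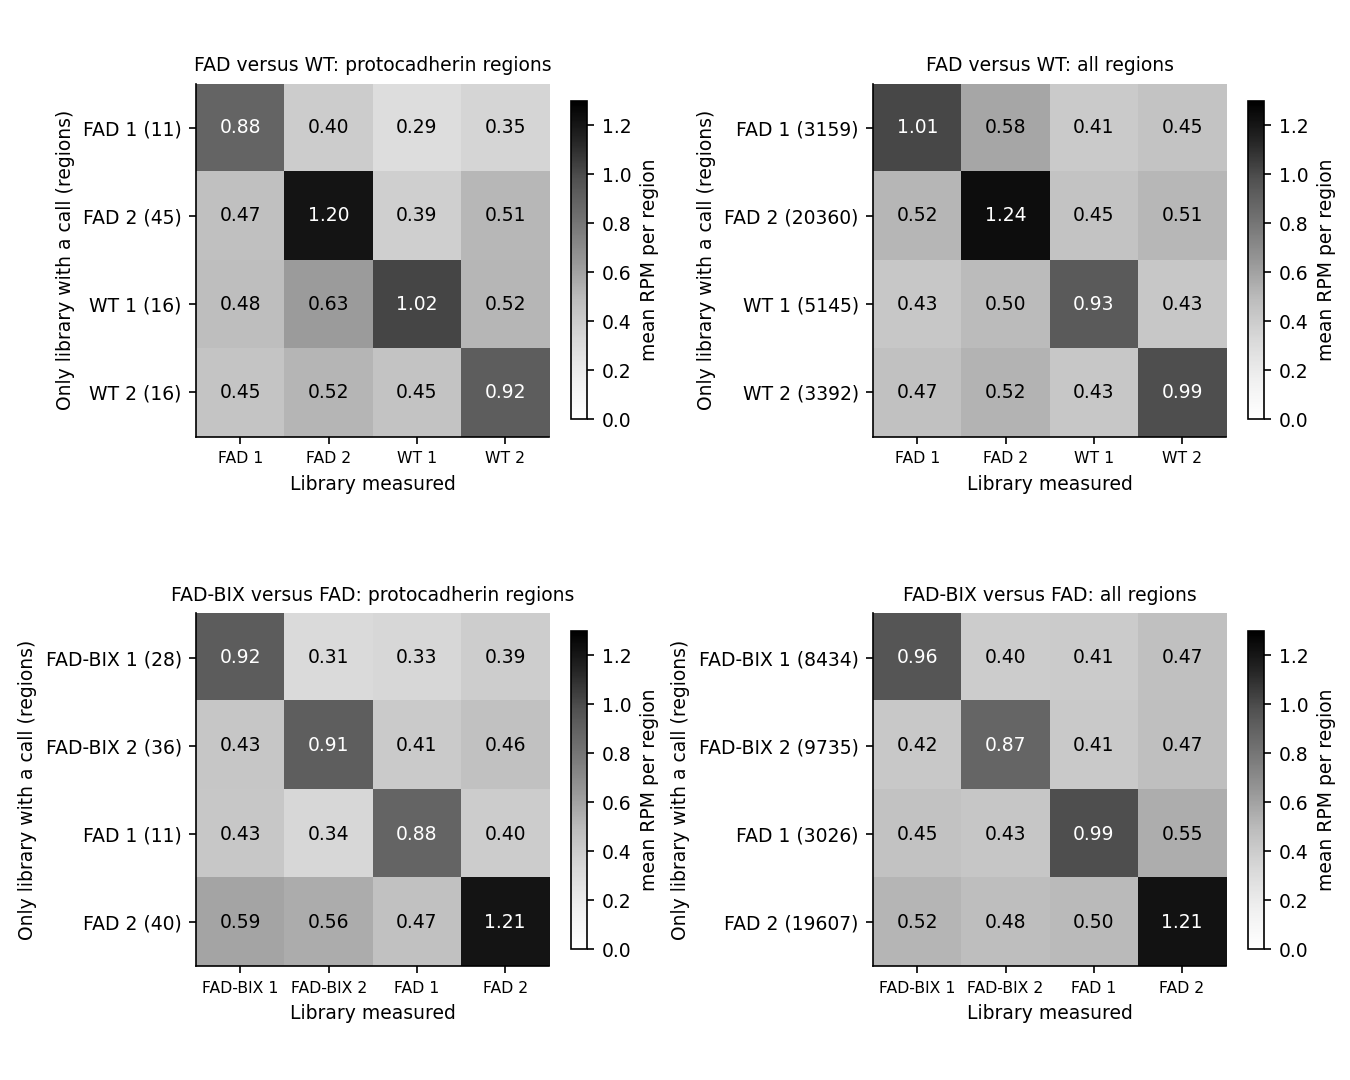
Mean ChIP signal per region (RPM, grey scale and printed value) in each library (columns) for regions called in a single library (rows, with the number of regions), for the protocadherin regions (left) and all regions (right) of the FAD versus WT table (top) and the FAD-BIX versus FAD table (bottom). The diagonal, where a library is read in the regions it called, is 0.87 to 1.24 RPM, and the cells off the diagonal are 0.29 to 0.63 RPM.

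WT, FAD and FAD-BIX could be set side by side only where the tables shared a region. At 50% reciprocal overlap 63 member regions matched, which is 66.3% of those in the FAD versus WT table and 48.8% of those in the other. Of the 63, 61 had been called in a FAD library, so these regions were chosen where FAD was high. Summed, WT mice had 1.25 and 1.37 RPM per kb, FAD mice 1.60 and 2.78, and FAD-BIX mice 1.63 and 1.57. In this sum the FAD-BIX mice were close to FAD 1 and above both WT mice, and FAD 2 was far above the rest. For the 7 matched Pcdh9 regions the values were 1.03 and 1.39 in WT, 1.41 and 2.72 in FAD and 1.48 and 1.86 in the treated mice. For the 24 matched Pcdh17 regions they were 1.44 and 1.34 in WT, 1.48 and 2.86 in FAD and 1.73 and 1.80 in FAD-BIX mice. For the 15 matched Pcdh15 regions they were 1.26 and 1.53 in WT, 1.93 and 2.53 in FAD and 1.88 and 1.27 in FAD-BIX mice. No test was made across the tables.

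Related genes were counted in the same way over gene sums. Across 8 members, 6 could be tested, with a median log2 fold of -0.17 in FAD versus WT and 0.14 in FAD-BIX versus FAD, against medians of 0.01 and 0.00 over all genes. Among 13 type II cadherins, another family of adhesion genes, 8 and 9 were tested, with medians of -0.11 and 0.16. In FAD versus WT 1 of them was lower at an unadjusted p under 0.05, and in FAD-BIX versus FAD 2 were higher. Cdh7 held 54 and 76 reads in the FAD mice, against 80 and 93 in WT mice (log2 fold -0.80 ± 0.28, adjusted p = 0.929), and in its regions of the other table, 125 and 164 in the treated and 94 and 133 in the untreated FAD mice (0.72 ± 0.25, adjusted p = 0.841). The second of the higher genes, Cdh20, held 65 and 85 against 55 and 56 reads (0.77 ± 0.32, adjusted p = 0.841). Cdh12, with the second smallest p in FAD versus WT, had -0.24 ± 0.23.

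The clustered protocadherins were covered by few regions. In the FAD versus WT table, 8 regions were given to 21 clustered genes, which overlap each other so that 1 region counts for several of them, and 0 of 21 genes passed an unadjusted p of 0.05. In the other table, 7 regions stood for 21 genes, of which 20 were tested and 8 were lower at an unadjusted p under 0.05 and 0 higher. Pcdhga1 and Pcdhga3, which share 3 regions, held 23 and 27 reads in the treated mice against 65 and 90 in untreated FAD mice (log2 fold -1.26 ± 0.36, adjusted p = 0.841), and in FAD versus WT they had 0.55 ± 0.32. Of the other non-clustered protocadherins Pcdh1, Pcdh11x, Pcdh12 and Pcdh19, Pcdh11x alone had regions, with 15 and 32 reads in the FAD mice, against 4 and 14 in WT mice (0.95 ± 0.68). The giant cadherins of the Fat, Dachsous and Celsr families had 3 and 4 of 9 genes tested, and none passed an unadjusted p of 0.05 in either comparison. Dchs2 had 0.68 ± 0.37 and -0.51 ± 0.34, and Fat4 0.37 ± 0.41 and 0.32 ± 0.37.

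The partners of these proteins were almost free of regions. Of 9 tip link partners of Pcdh15, Tmc1, a channel subunit of hair cells, alone had regions. It held 102 and 161 reads in the FAD mice, against 96 and 95 in WT mice (0.05 ± 0.25), with -0.32 ± 0.27 in the other comparison. Of 10 intracellular partners, most of them WAVE complex genes, Cyfip1 was tested in both comparisons (0.37 ± 0.58 and -0.39 ± 0.66). None of these genes reached an unadjusted p of 0.05. Of the heart muscle genes 4 and 3 were tested, and 2 were higher in FAD versus WT and 3 lower in FAD-BIX versus FAD at an unadjusted p under 0.05, with medians of 2.02 and -3.14. Actc1 had 3.19 ± 0.95 and -3.14 ± 0.74, and Myh6 2.79 ± 0.92 and -3.44 ± 0.76, with reads mostly from the library labelled FAD 1.

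The genes whose pattern was closest to the summed protocadherins were found by the Euclidean distance in the log2 ratio of ChIP to input over 8 values, 4 mice in each table with FAD mice in both. Among 75 genes with at least 20 regions in each table the closest were Sgcz (distance 0.32), Nkain2 (0.41) and Nell1 (0.43). Pcdh17, which is part of the sum, ranked 6 with a distance of 0.46, and Pcdh15 ranked 66 with 1.08. The FAD libraries count in both tables of this measure, and it describes these mice only.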

How the data were processed

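H3K9me2 ChIP and input libraries of 6 mice were analysed from 2 deposited region tables, which hold read counts, RPM (counts scaled to the library total), peak calls per library, and the authors' log2 ratio with p-value and q-value. The submitters' processing notes name FastQC, Trimmomatic, BWA 0.7.12, MACS2 2.1.0 and mm9. The positions and gene starts in the tables overlapped those of RefSeq GRCm38.p6 for 99.8% of 3330 and 99.7% of 3776 matched genes, so the coordinates are given as GRCm38. The base from which starts are counted, which libraries had 50 bp single-end or 150 bp paired-end reads, and how regions of different libraries were joined are not given in the sources used here. Calls are given per library, per the file headers, on the same reads that are compared.

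Deposited counts per region were kept once per region, and summed per gene and per gene and location. They were tested with edgeR 4.0.16 (R 4.3.3, quasi-likelihood test, TMM scaling, filterByExpr defaults, Benjamini-Hochberg adjustment over all features, threshold 0.05), 2 ChIP libraries against 2. SE is the absolute log2 fold divided by the square root of F. Library totals were recovered from the deposited counts and the authors' RPM values. The authors' log2 ratios and p-values were used only where named. The p-values measure the spread between these mice. Alternatives were DESeq2 1.42.0, its size factors, library totals, limma 3.58.1 on ChIP over input, filters, the replicate block and leaving out each library. The scripts were tested on simulated data. The members and gene lists were chosen with earlier results of these data known. Named regions were taken from those with the smallest p, the most reads or at least 2 calling libraries per gene and table, and named list genes the 2 with the smallest p in each list and comparison. The region counts in windows around the genes follow no test.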

Additional observations from a re-analysis of the deposited data

How the results depend on the processing

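Groups held 2 mice, single regions held few reads, and the scaling sets the sign of small folds. Scaling by library totals in place of TMM moved the share of gene sums above 0 from 50.7% to 85.7% in FAD versus WT and from 49.9% to 28.3% in FAD-BIX versus FAD. Counts of features called, all 0 with edgeR and TMM, were as follows. In FAD versus WT, regions gave 2 with library totals, 7 with regions called in at least 2 libraries, 8 without regions called in FAD 2 alone, and 0 to 119 leaving out 1 library, the highest without FAD 1. Gene sums gave 1 with DESeq2, 2 with library totals, 1 with regions overlapping a gene only, 13 without regions called in FAD 2 alone, and 0 to 31 leaving out 1 library. Location sums gave 2 with DESeq2, 2 with library totals, 11 without regions called in FAD 2 alone, and 0 to 37 leaving out 1 library. In FAD-BIX versus FAD, regions gave 4 with library totals, 17 with no filter on low counts, 7 without regions called in FAD 2 alone, and 12 to 26 leaving out 1 library. Gene sums gave 3, 12, 6 and 12 to 24 under the same settings, and location sums 3, 12, 4 and 0 to 26. A lone library is assumed to vary like the other group of its comparison. Among the protocadherins 1 feature was called in any alternative run, the inner sum of Pcdh9 without FAD 1 (members called 0 to 1). The cause of these shifts was not tested. Most regions of the inner Pcdh9 sum had been called in FAD-BIX libraries alone. The matched regions gave a WT mean of 1.395 RPM per kb at any overlap against 1.31 at 50%, and a FAD-BIX mean of 1.53 at 80% against 1.60 at 50%.

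The labels do not tie mice of different groups by replicate number, so the main fits used no pairing. The deviations of same-numbered ChIP libraries correlated at 0.06 in FAD versus WT and -0.04 in FAD-BIX versus FAD over regions. Groups of 2 mice cannot show in this way whether same-numbered mice were handled together. With the replicate block, 2 gene sums and 15 location sums were called in FAD versus WT and 2 and 7 in FAD-BIX versus FAD, none of them a protocadherin, and the Pcdh9 gene sum was 0.65 in FAD-BIX versus FAD.

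For FAD versus WT, log2 folds of the opposite sign were found with library totals as scaling Pcdh7 smallest-p region 0.21, Pcdh9 0.31, Pcdh15 0.40, Pcdh17 0.37, Pcdh20 0.34, Pcdh17 inside 0.61, Pcdh17 flank 0.36, and with limma on ChIP over input Pcdh7 smallest-p region 0.039, Pcdh9 0.30, Pcdh15 0.69, Pcdh17 0.58, Pcdh20 0.45, Pcdh17 inside 0.91, Pcdh17 flank 0.55, and with only regions called in at least 2 libraries Pcdh15 0.095, and without regions called in FAD ChIP 2 alone Pcdh15 0.15, Pcdh17 0.097, Pcdh17 flank 0.094. Leaving out 1 library at a time, folds crossed 0 for Pcdh7 -0.31 to 0.40, Pcdh15 -0.44 to 0.10, Pcdh9 flank -0.19 to 0.54, Pcdh17 inside -1.02 to 0.30. For FAD-BIX versus FAD, log2 folds of the opposite sign were found with library totals as scaling Pcdh7 -0.22, Pcdh15 -0.054, Pcdh20 -0.18, and with limma on ChIP over input Pcdh18 smallest-p region 0.15, Pcdh7 -1.35, Pcdh15 -0.63, Pcdh18 0.77, Pcdh9 flank -0.10, and with no filter on low counts Pcdh7 -0.012, and with only regions called in at least 2 libraries Pcdh15 -0.10, and with regions overlapping a gene only Pcdh7 -0.011, and without regions called in FAD ChIP 2 alone Pcdh7 -0.20, Pcdh15 -0.088. Leaving out 1 library at a time, folds crossed 0 for Pcdh18 smallest-p region -1.09 to 0.071, Pcdh7 -0.34 to 0.39, Pcdh15 -0.081 to 0.47, Pcdh18 -0.41 to 0.21, Pcdh20 -0.040 to 0.22, Pcdh17 inside -0.021 to 1.28.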
